A study of Homo sapiens with 8 samples.

Results

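The E2F and retinoblastoma family was examined in a list of PML::RARA binding sites, taking the 10 genes E2F1, E2F2, E2F3, E2F4, E2F6, E2F8, TFDP1, RB1, RBL1 and RBL2. The peaks were those that carry the symbol of one of these genes, together with peaks that carry no symbol and whose centre lies within 50 kb of such a peak on the same chromosome. In this way, 16 of the 15412 peaks in the list were found, 9 with a family symbol and 7 without one. Of the 10 genes, 7 had a peak under their own symbol, and E2F4, RB1 and RBL2 had none. The 10 were chosen with earlier results of these data known. Of 4 related genes left out of them, E2F5, E2F7, TFDP2 and TFDP3, only E2F7 had a peak under its symbol. Across the genome 30.0% of protein-coding genes (6025 of 20090) had a peak under their own symbol.

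The peaks come from Cut&Run, in which an antibody brings a nuclease to its target protein in isolated nuclei and the released DNA is sequenced. The cells were U937-PR9, a monocytic line with a PML::RARA transgene under a zinc-inducible promoter, so the fusion protein was expressed in cells that do not carry the translocation of acute promyelocytic leukemia. Expression was induced with 100 μM ZnSO4 for 5 h, uninduced cells were given water instead, and each condition was profiled with an anti-PML::RARA and an anti-RARA antibody in 2 replicates, which gave 8 libraries. Only the induced anti-PML::RARA list was analysed here. Zinc came with the fusion protein in every induced library, so zinc and the fusion protein cannot be told apart. The list gives 1 set of values for both replicates and the sequencing depth is unknown. Differences between peaks therefore carry no replicate error and were not tested. Peak height is the largest signal within a peak, and the apex is the midpoint of the interval that holds this signal. As a check of the myeloid background, SPI1, CEBPE and MPO had promoter peaks, and LYZ had none.

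E2F proteins bind DNA together with a DP partner such as TFDP1 and control genes for DNA replication and entry into S phase. E2F1, E2F2 and E2F3 are known as activators, E2F4 acts mainly in repression with the pocket proteins RBL1 (p107) and RBL2 (p130), and E2F6 and E2F8 repress without binding pocket proteins. RB1 binds the activators until cyclin-dependent kinases phosphorylate it, and several family genes are themselves E2F targets.

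Of the 9 family promoter peaks, 6 held an E2F word within 200 bases of the apex (66.7%, Wilson 95% interval 35.4 to 87.9%), against 7.02% of all 7169 peaks with a gene symbol (503 peaks). With the window placed at the centre of each peak instead of its apex, the family share was 33.3%. No share over all peaks is given for that window. Several family genes are known E2F targets, so the family share is not independent of the choice of genes. The words searched were TTTCCCGC, TTTGGCGC, TTTCGCGC and TTTGCCGC on either strand. They were found at the main peaks of E2F1 and E2F2 and at the peaks of E2F3, E2F8, TFDP1 and RBL1. The RB1 start site, which lies under a peak with another symbol, held one too. Sequences from 6 of these genes, E2F1, E2F2, E2F3, TFDP1, RBL1 and RB1, are shown on the strand of each gene (hg19), with the E2F words in capitals, to show the words behind this count and the site at the RB1 start.
E2F1, chr20:32274199-32274228, minus strand: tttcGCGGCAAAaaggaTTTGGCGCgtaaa
E2F2, chr1:23857733-23857792, minus strand: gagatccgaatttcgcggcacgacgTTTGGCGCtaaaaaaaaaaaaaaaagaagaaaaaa
E2F3, chr6:20402030-20402089, plus strand: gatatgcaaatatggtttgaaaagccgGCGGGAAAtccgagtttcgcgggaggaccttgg
TFDP1, chr13:114238921-114238980, plus strand: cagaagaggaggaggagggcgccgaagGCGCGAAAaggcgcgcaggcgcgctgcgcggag
RBL1, chr20:35724402-35724431, minus strand: cagatTTTCGCGCgcTTTGGCGCaggtggt
RB1, chr13:48877850-48877879, plus strand: cggaagtgacgtTTTCCCGCggttggacgc

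Relative to the canonical start site of each gene, the E2F1 words were centred 16 and 29 bp upstream, the E2F2 word shown 38 bp upstream and the E2F3 word 50 bp upstream. The RB1 word lay 22 bp upstream and the TFDP1 word 117 bp upstream. The pair of RBL1 words shown lay 12 and 22 bp upstream of the start site but over 200 bases from the apex. The RBL1 peak was counted through 2 other words, at 48 and 94 bp from its apex, inside the first intron. E2F2 held another word 359 bp upstream of its start. A word match describes the sequence and does not show that a factor was bound there.

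The family matched its start sites in the same way without reference to the peaks. Within 200 bases of the canonical start, 6 of the 10 genes held an E2F word, against 5.13% of 19812 protein-coding genes, 6.81% of those with a peak under their symbol and 4.4% of those without. The 6 genes were E2F1, E2F2, E2F3, RB1, RBL1 and TFDP1. Other words were counted in the same windows. The SP/KLF word GGGCGG was in 6 of 9 family promoter peaks and in 76.2% of all peaks with a symbol, and the NFY word CCAAT in 5 of 9 and 44.1%. An ETS word, either CCGGAAG or one of its variants AGGAAGT and also GGGAAGT, was in 3 of 9 and 39.9%. A retinoid receptor half-site, namely AGGTCA or one of the related words GGGTCA and also AGTTCA or else GGTTCA, was in 1 of 9 family promoter peaks, that of RBL1, and in 45.6% of all peaks with a symbol. The median GC content around the apex was 60.9% in family promoter peaks and 64.3% in all peaks with a symbol, and the part of base composition in these shares was not tested.

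**Figure D1:**
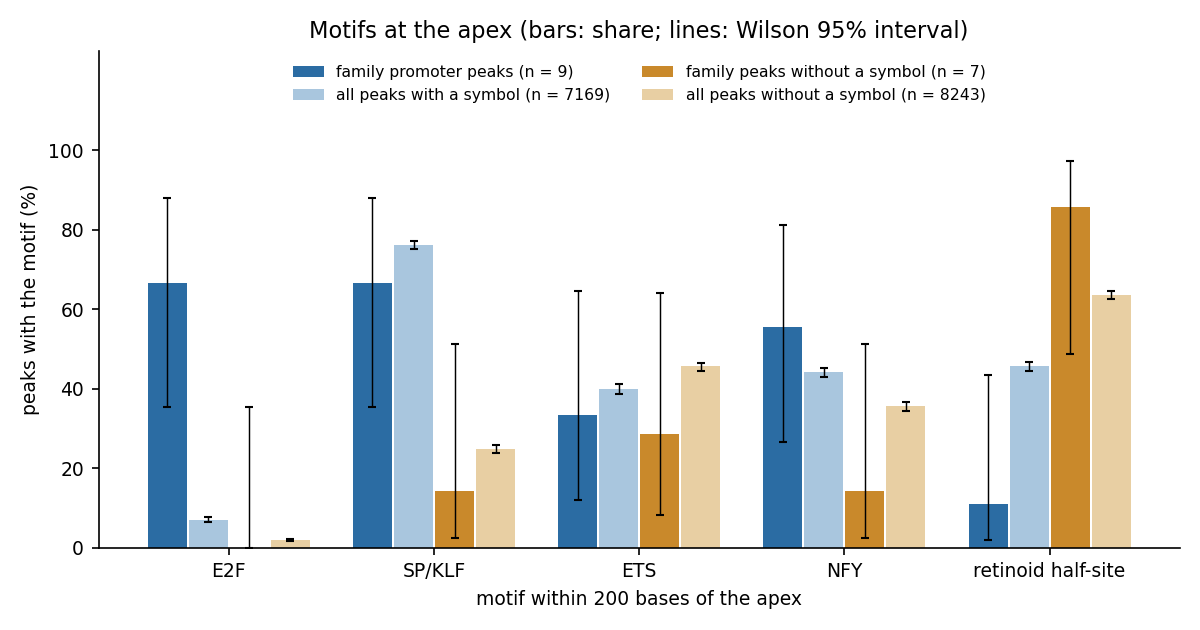
Share of peaks (%) with each motif within 200 bases of the apex, in family promoter peaks (n = 9), all peaks with a symbol (n = 7169), family peaks without a symbol (n = 7) and all peaks without a symbol (n = 8243). Bars give the share and lines its Wilson 95% interval, which covers the counting of peaks only. The E2F words stood at 66.7% in family promoter peaks and 7.02% in all peaks with a symbol, and the retinoid half-site at 11.1% and 45.6%.

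The 9 family promoter peaks had a median height of 27 (range 16 to 46) and a median width of 986 bp (range 348 to 3378 bp). All peaks with a symbol had medians of 26 and 1108 bp. In height 5 of the 9 were above the median of the whole list, which was 25, and in width 5 were above the list median of 829.5 bp. The medians of the family promoter peaks thus lay near those of all peaks with a symbol. E2F3 stood at the upper end, and E2F6 and the second E2F1 peak at a height of 16, which only 20 peaks of the list fell below.

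**Figure D2:**
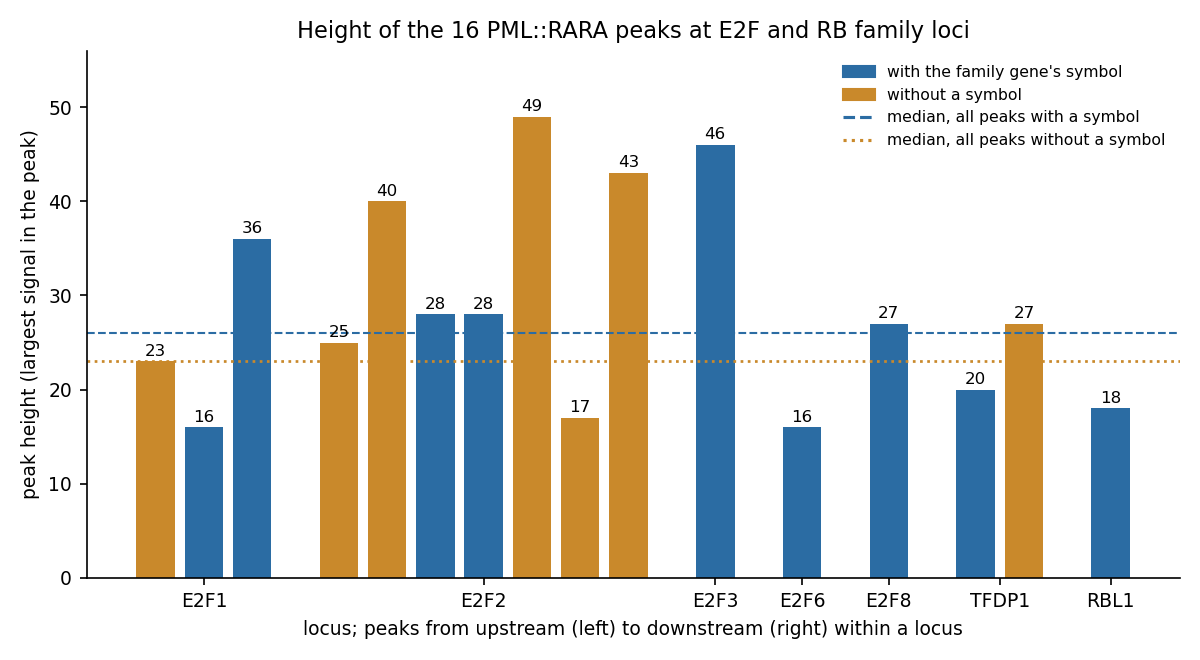
Height of each of the 16 peaks (largest signal in the peak), grouped by locus and ordered from upstream to downstream of the gene, with bars for peaks with the family symbol in blue and without a symbol in orange. Dashed and dotted lines mark the medians of all peaks with (26) and without (23) a symbol. The E2F2 locus held 7 peaks, and 3 of its 5 peaks without a symbol, at 49, 43 and 40, were higher than both of its promoter peaks.

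Of the activators, E2F3 (ENSG00000112242, plus strand of chromosome 6 from 20402110 to 20493945, hg19) carried the highest and widest promoter peak of the family. It ran from 20401375 to 20404752, with a height of 46 (rank 989 of 15412) and a width of 3378 bp (rank 128). The apex lay 111 bp upstream of the canonical start. E2F3 has 2 annotated start sites, for its long and short isoforms, and this 1 peak covered both. Only 47 peaks of the list, itself included, were at least as wide and as high, and its total signal ranked 188. Within the peak the mean signal was 25.9% of its height, the lowest share among the family promoter peaks. The peaks nearest to it in log2 height and log2 width together carried the symbols ATG16L2 (height 46, 3411 bp) and RNPEPL1 (height 44, 3339 bp). No peak without a symbol lay within 50 kb of it.

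E2F1 (ENSG00000101412, minus strand of chromosome 20 from 32263283 to 32274191) carried 2 peaks under its symbol. The main one, from 32273147 to 32274920, had a height of 36 (rank 2815) and a width of 1774 bp, and the apex, 67 bp upstream of the start, lay within 51 bp of both E2F words shown above. The sequence around this apex was 75.6% GC. The second, from 32275242 to 32275589, reached a height of 16 over 348 bp, with its apex 1173 bp upstream and no E2F word. A peak without a symbol, from 32277674 to 32278307, followed 3841 bp upstream of the start with a height of 23 over 634 bp. The signal at E2F1 therefore was highest at the start site and lower in both upstream peaks.

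E2F2 (ENSG00000007968, minus strand of chromosome 1 from 23832930 to 23857725) held 7 of the 16 family peaks, the most of any member. Its start-site peak, from 23856602 to 23858345, had a height of 28 (rank 5666) and a width of 1744 bp, and its apex lay 187 bp upstream. A second peak under its symbol, from 23859433 to 23860418, also had a height of 28 over 986 bp, with its apex 2534 bp upstream. Of the genes with any promoter peak, 8.42% had more than 1 (551 of 6546). E2F1 and E2F2 were 2 such genes among the 7 family genes with a peak.

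The 5 other E2F2 peaks carried no symbol. The highest, from 23854532 to 23855477 in intron 1, reached 49 over 946 bp (rank 706, above 94.9% of all peaks), with its apex 2905 bp downstream of the start. A second intron 1 peak, from 23851148 to 23852154, reached 43 over 1007 bp (rank 1386), 5974 bp downstream of the start. A narrow peak beside it, from 23852294 to 23852631, reached 17 over 338 bp. Upstream, the peak from 23866186 to 23866814 reached 40 over 629 bp (rank 1901), with its apex 8757 bp from the start. The farthest peak, from 23880648 to 23881831, reached 25 over 1184 bp, 23233 bp upstream, where the nearest protein-coding start was that of ID3, an inhibitor of basic helix-loop-helix factors, at 4608 bp. Of these 5 peaks, 3 were higher than the start-site peak, whereas at E2F1 the start-site peak was the highest. Having 5 or more peaks without a symbol within 50 kb was found for 4.02% of genes with a promoter peak (263 of 6546), while 3495 of these genes had none. E2F2 had exactly 5, which equals the cut-off used. Its count includes the farthest peak, which lies nearer to the ID3 start, and the narrow intron 1 peak. Without either of these peaks E2F2 would fall below the cut-off. E2F1 and TFDP1 had 1 each, and E2F3, E2F6, E2F8 and RBL1 had none.

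**Figure D3:**
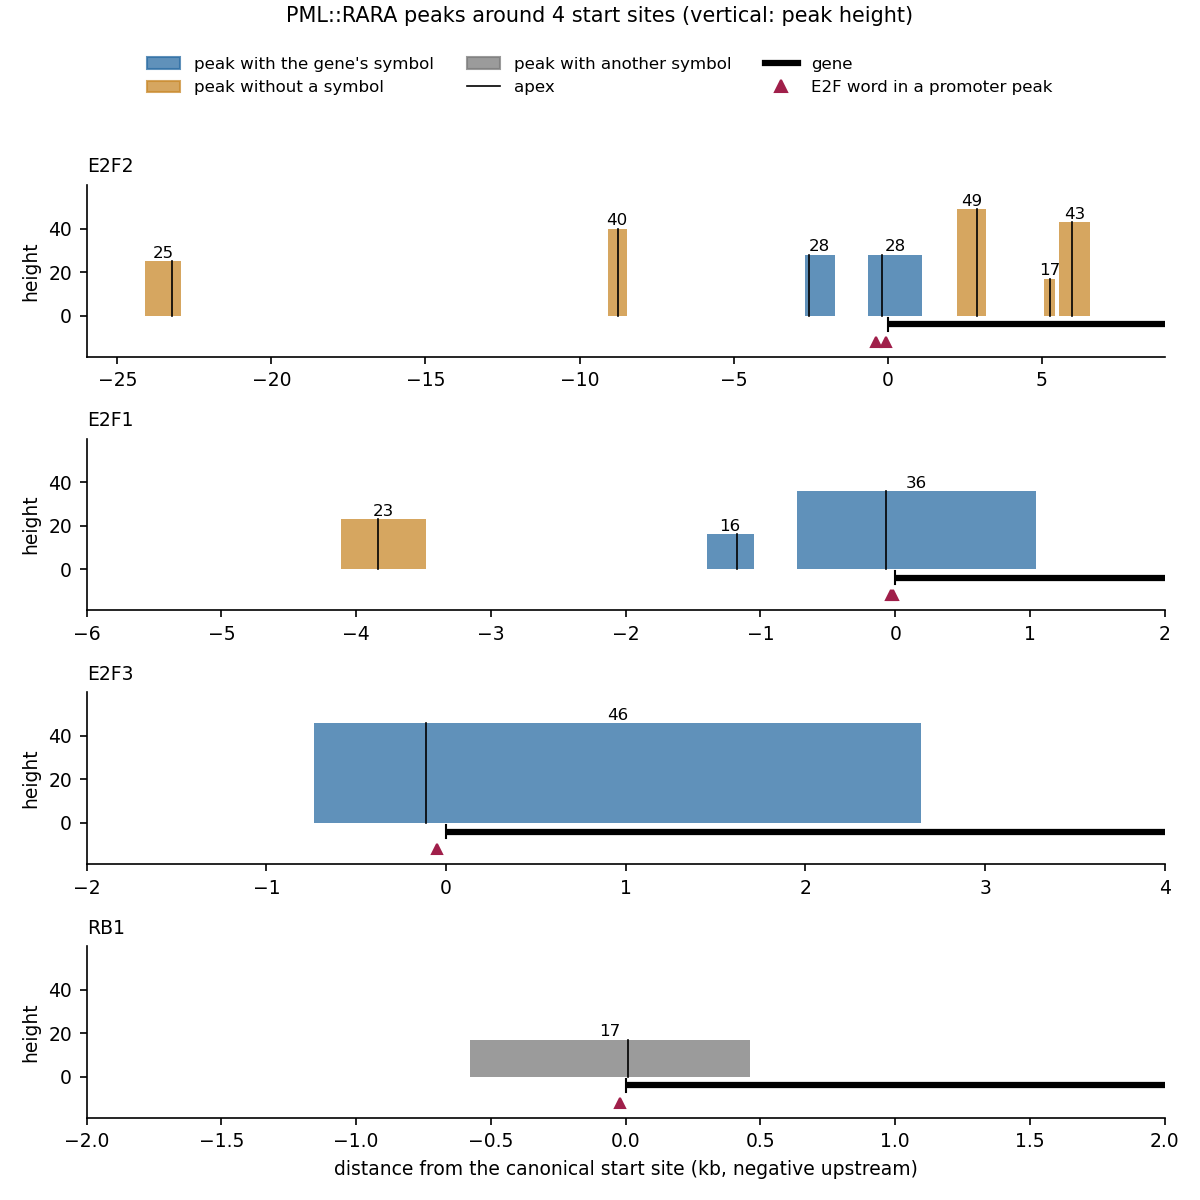
Peaks around the start sites of E2F2, E2F1, E2F3 and RB1 against the distance from the canonical start (kb, negative upstream, a different scale in each panel), with peak height on the vertical axis. Boxes span each peak, thin lines its apex, black bars the gene, and triangles the E2F words in promoter peaks. The words lie at the start sites, and the highest E2F2 boxes (49, 43 and 40) lie away from the canonical E2F2 start.

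The family peaks without a symbol were searched for the same words. None of the 7 held an E2F word within 200 bases of the apex (0 of 7, Wilson upper bound 35.4%), against 1.92% of all 8243 peaks without a symbol. A retinoid half-site was present in 6 of the 7 (85.7%), against 63.7% of all peaks without a symbol, and the exception was the upstream E2F1 peak. The interval for 6 of 7 (48.7 to 97.4%) includes the share over all such peaks. No family peak held a direct repeat of the half-site with a spacing of 1, 2 or 5 bases, and these were rare in the list (0.752% of peaks without a symbol for a spacing of 2). The sequences 75 bases either side of the apex are shown for 3 E2F2 peaks and for the TFDP1 peak, on the plus strand (hg19), with the half-sites in capitals, because they show the words counted in these peaks.
E2F2 intron 1, height 49, chr1:23854745-23854895, plus strand: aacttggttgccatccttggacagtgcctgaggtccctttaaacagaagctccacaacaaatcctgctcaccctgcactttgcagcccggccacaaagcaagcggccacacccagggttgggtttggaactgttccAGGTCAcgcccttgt
E2F2 upstream, height 40, chr1:23866407-23866557, plus strand: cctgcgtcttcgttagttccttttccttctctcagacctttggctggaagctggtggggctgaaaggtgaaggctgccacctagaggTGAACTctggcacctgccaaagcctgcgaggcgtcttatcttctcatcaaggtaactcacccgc
E2F2 far upstream, height 25, chr1:23880883-23881033, plus strand: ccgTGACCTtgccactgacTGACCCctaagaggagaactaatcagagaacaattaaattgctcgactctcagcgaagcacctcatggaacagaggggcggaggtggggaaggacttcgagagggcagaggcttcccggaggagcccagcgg
TFDP1 intron 3, height 27, chr13:114270983-114271133, plus strand: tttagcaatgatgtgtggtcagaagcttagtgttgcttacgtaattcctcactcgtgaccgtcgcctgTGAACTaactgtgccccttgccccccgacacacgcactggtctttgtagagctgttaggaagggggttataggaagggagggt

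In the E2F2 peak of height 49 the half-site AGGTCA was centred 64 bp from the apex, and a second one, AGTTCA on the minus strand, was cut by the edge of the stretch shown at 74 bp. In the peak of height 40 the half-site was centred 15 bp from the apex, and in the TFDP1 peak 4 bp. The far upstream peak held 3 half-sites in the window of 200 bases either side, of which 2 are in the stretch shown. In the peak of height 43 the single half-site lay 150 bp from the apex.

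The repressors E2F6 and E2F8 differed in their peaks. E2F6 (ENSG00000169016, minus strand of chromosome 2 from 11584501 to 11606303), which joins a Polycomb complex, had a peak of height 16 (tied at rank 14278) over 473 bp, from 11605528 to 11606000, with the apex in intron 1, 264 bp downstream of the nearest of its start sites. It held no E2F word and, of the words searched, only an SP/KLF word. E2F8 (ENSG00000129173, minus strand of chromosome 11 from 19245610 to 19263167), an atypical E2F that needs no DP partner, had a peak of height 27 (rank 6155) over 1420 bp, from 19262363 to 19263782. Its apex lay 137 bp upstream of the canonical start, and the peak covered 3 of its 4 annotated start sites. E2F4 (ENSG00000205250, chromosome 16, plus strand, 67226058 to 67232821) was not covered by any peak. The nearest peak to it carried the symbol KIAA0895L, reached 46 over 1624 bp and lay 7256 bp away. The start-site window of E2F4 held none of the E2F words.

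TFDP1 (ENSG00000198176, plus strand of chromosome 13 from 114239036 to 114295788), the DP partner of the E2Fs, had a promoter peak from 114238497 to 114239224 with a height of 20 (rank 10691) over 728 bp. Its apex lay 97 bp upstream of the canonical start and the E2F word 20 bp farther upstream. The GC content around the apex was 81.0%, higher than in 99.7% of all peaks. The intron 3 peak of TFDP1, from 114270986 to 114271362, was higher (27) and narrower (377 bp), at 46.1% GC. Both E2F2 and TFDP1 therefore had an intronic peak that was higher than the peak at the start site. How many genes of the whole list have such an intronic peak was not counted. In a different comparison, not made gene by gene, 3197 of the 8243 peaks without a symbol were higher than the median of peaks with a symbol (26).

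Among the pocket proteins, RBL1 (ENSG00000080839, minus strand of chromosome 20 from 35624752 to 35724400) was the only one with a peak under its own symbol. The peak ran from 35723861 to 35724541, with a height of 18 (rank 12401) over 681 bp and its apex in intron 1, 314 bp from the canonical start. The mean signal within it was 50.8% of its height, a larger share than in 97.4% of all peaks. RB1 (ENSG00000139687, plus strand of chromosome 13 from 48877880 to 49173572) lacked a peak of its own symbol. A peak from 48877308 to 48878347 nevertheless covered its start, with the apex in the 5′ UTR 8 bp downstream of a start site. The authors had given this peak the symbol of RB1-DT, the divergent transcript of RB1. Its height was 17 (tied at rank 13294) and its width 1040 bp. It thus resembled the RBL1 peak in height, but it was wider. RBL2 (ENSG00000103479, chromosome 16, plus strand, 53467889 to 53525560) was likewise uncovered, and the nearest, labelled AKTIP with a height of 66 over 1683 bp, lay 10748 bp away. By position rather than symbol, 8 of the 10 members had an apex no more than 1 kb from a start site, and E2F4 and RBL2 did not. Such an apex was found at 39.3% of protein-coding genes (7904 of 20090).

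**Figure D4:**
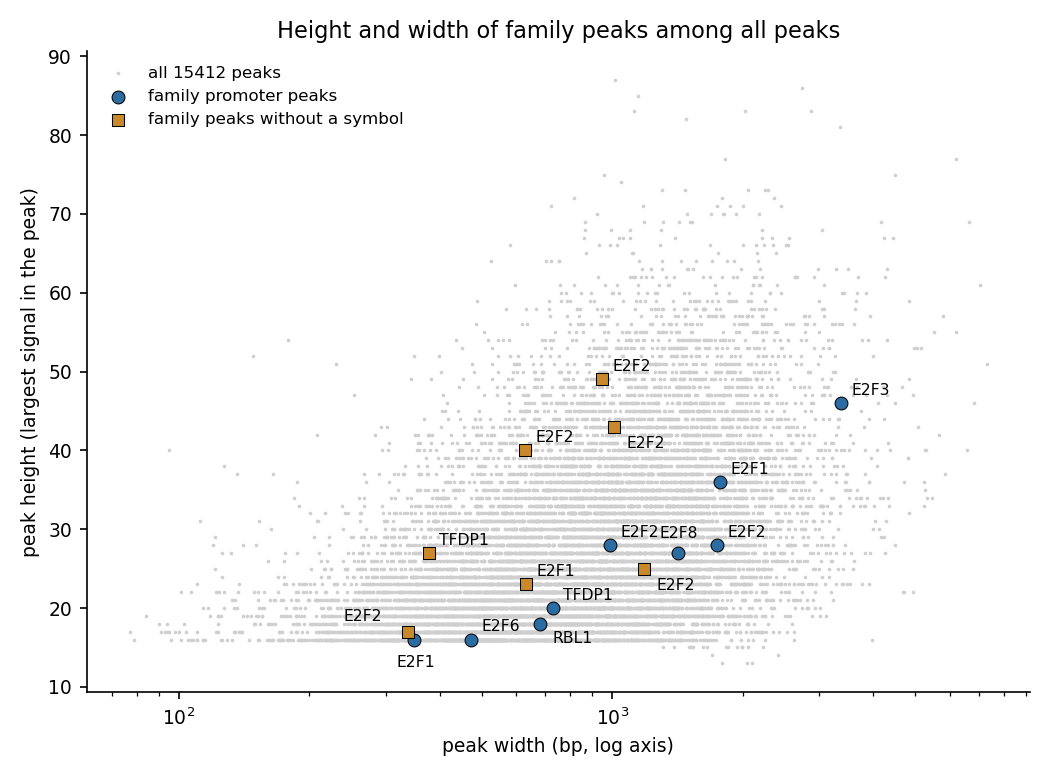
Height (largest signal in the peak) against width (bp, log axis) of all 15412 peaks in grey, with the 9 family promoter peaks as blue circles and the 7 family peaks without a symbol as orange squares. E2F3 lies at the upper right (46, 3378 bp), and 3 E2F2 peaks without a symbol, at heights of 49, 43 and 40, are narrower. At the low end lie the E2F6 and RBL1 peaks, the TFDP1 promoter peak, the second E2F1 peak and the E2F2 peak of height 17.

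The genes around the family were described through 6 lists of genes known to act with it or downstream of it. Of these 64 genes, 42 had a peak under their own symbol (65.6%), beside the 30.0% of all protein-coding genes, and 51 had an apex within 1 kb of a start of their own, beside 39.3%. The lists were chosen with earlier results of these data known. Both genome-wide shares were taken over all protein-coding genes, whether or not they are expressed in these cells. The part of expression and open chromatin in these differences was not tested.

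The S-phase genes known as E2F targets were the most often marked, with 17 of 20 under their own symbol (85.0%). CDC25A, a phosphatase that activates cyclin-dependent kinases, had the highest peak (65), followed by PCNA, the sliding clamp of DNA replication (62), and CDC6, which helps to load the replicative helicase (46). CDT1, which also acts in helicase loading, had the widest (2208 bp). The median height in this list was 34.5, beside 26 for all peaks with a symbol. The 3 without a symbol were MCM4, TYMS and CDC45. Each had an apex within 150 bp of its own start, in a peak labelled for the neighbouring gene PRKDC, TYMSOS or UFD1, so all 20 had an apex within 1 kb of an own start site. An E2F word was within 200 bases of the apex in 11 of the 22 peaks of this list, beside 7.02% of all peaks with a symbol. The genes were listed as E2F targets, so this share is not independent of the choice of list.

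Among the cyclins, kinases and inhibitors upstream of RB, 12 of 15 genes (80.0%) had a peak. CCND3, a D-type cyclin, had both the highest (59) and the widest (4823 bp), with CDK4, its kinase partner, at 53 and CDKN2D, an inhibitor of CDK4 and CDK6, at 52. The median height in this list was 27, near the 26 of all peaks with a symbol, and the peaks of CCNE1 (16) and CCND1 (17) were low. CDK2, CDKN1C and CDKN2B had none under their symbols, but CDK2 had an apex 8 bp from its own start in a peak labelled PMEL (height 24), and CDKN2B had one 41 bp from its start in a peak without a symbol (height 16). Of the 14 peaks in this list, 2 held an E2F word (14.3%), beside 7.02% of all peaks with a symbol.

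Of the RB-binding chromatin proteins, most of them enzymes, 6 of 8 had a peak, with a median height of 24. The highest were those of the deacetylase HDAC1 (34) and the chromatin remodeller SMARCA2 (25), with HDAC2 and SMARCA4 both at 24. The widest was at RBBP7 (2066 bp). ARID4A and SUV39H1 had none under their symbols, but ARID4A had an apex 307 bp from its own start in a peak labelled PSMA3-AS1 (height 32). Of the E2F6 Polycomb complex, 4 of 10 had a peak, namely MAX (33), RYBP (22, the widest at 1369 bp), MGA (20) and RNF2 (18). These were all higher than the E2F6 peak itself (16), a height that only 20 of all 15412 peaks fell below. Of the other genes in this list, YAF2 and CBX3 had an apex 78 and 132 bp from their own starts, in a peak without a symbol (height 19) and one labelled HNRNPA2B1 (height 44). The MuvB core, which forms the DREAM complex with RBL1 or RBL2, E2F4 and a DP protein, was listed with MYBL2 and FOXM1, which bind it in other complexes. This list had a peak at 2 of 7 genes, LIN54 (32) and LIN37 (25). LIN9, LIN52, RBBP4, MYBL2 and FOXM1 had none under their symbols, although LIN52 and RBBP4 had an apex within 149 bp of their starts in peaks with the symbols ALDH6A1 and ZBTB8OS. Of the other E2F and DP genes, E2F7 had a low peak (17, 838 bp) without an E2F word, and E2F5, TFDP2 and TFDP3 had none. By symbol, the E2F6 complex, the MuvB list and the other E2F and DP genes lay near the genome-wide share of 30.0%, which their Wilson 95% intervals include. By position, 6 of 10, 4 of 7 and 1 of 4 had an apex within 1 kb of an own start, beside 39.3% of protein-coding genes. No E2F word was found in the peaks of the RB-binding chromatin proteins (6 peaks), the E2F6 complex (4) or the MuvB list (3).

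**Figure D5:**
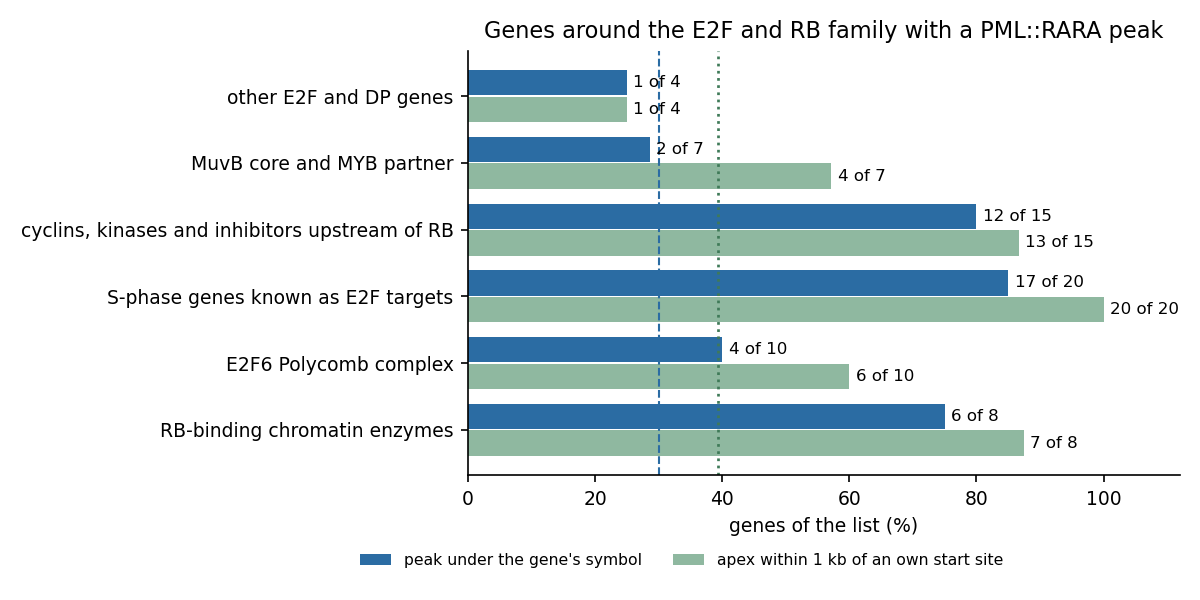
Share of genes (%) in each of the 6 lists with a peak under the gene's own symbol (blue) and with an apex within 1 kb of an own start site (green), with the counts beside the bars. The dashed line marks the share of all protein-coding genes with a peak under their symbol (30.0%) and the dotted line the share with an apex within 1 kb of a start (39.3%). Upstream regulators, S-phase targets, RB-binding chromatin proteins (labelled as enzymes) and the E2F6 complex lie above both lines. The MuvB list lies above its line by position only, and the other E2F and DP genes lie below both.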

How the data were processed

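The values come from Cut&Run libraries of the induced anti-PML-RARA group (2 replicates, 1 list). Per the labels and the study's methods, Trimmomatic was used for trimming, Bowtie2 for alignment (hg19) and SEACR for peak calling, after removal of duplicates and blacklisted reads, and an IDR below 0.05 across replicates was required. The deposited signal is a total over each peak, and the deposited score is its largest signal, both in whole numbers. The content of both columns was read from their values, and whether they hold 1 replicate, a mean or pooled reads, and any normalization, are not given in the sources used here. Depth per library is unknown. Gene symbols are those of the authors, who labelled peaks at promoters.

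Members and lists were chosen with earlier results of these data known. All members are named, and from each pathway list the 3 highest peaks, the widest, and the genes without a peak where these were 5 or fewer. Apexes were placed in GENCODE release 44 on GRCh37 (hg19), and sequences were read from that genome. The sequence of 1 promoter site is not reported here. Percentiles are the share of all peaks that are lower. Distances are from the apex or the centre of a word. In the 34 peaks whose apex interval lacks an end, its start was used. Counts over protein-coding genes used chromosomes 1 to 22 and X. The motif search was tested on simulated data. Wilson intervals (95%) were used for shares and reflect only how many peaks or genes were counted. Python 3.11.15, pandas 2.3.3, scipy 1.17.1 and pysam 0.24.0 were used.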

Additional observations from a re-analysis of the deposited data

How the results depend on the processing

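Each of the 7 summaries was recomputed under other processing settings, and 10 of the 22 values were counted as kept and 12 as moved. A value counted as kept could still differ from the original. The 16 family peaks became 14 with neighbours within 10 kb and 18 within 100 kb. By apex position, the 7 genes became 8 and the 42 pathway genes became 51. With a height at or over the list median required, there were 9 of the 16 family peaks, 4 of the 7 genes with a peak and 26 of the 42 pathway genes left. With the same rule on width, 8 family peaks and again 4 genes were left. In both cases the 4 were E2F1, E2F2, E2F3 and E2F8, and E2F6, TFDP1 and RBL1 were lost. Merging peaks under 1 kb apart moved the median height of family promoter peaks from 27 to 27.5 and the median width from 986 to 1203 bp. Taking peaks by their distance to an own start site gave 23.5 and 1230 bp, since the second E2F1 and E2F2 peaks dropped out and the RB1 start-site peak came in. The median height percentile moved from 56.7 to 66.0 with total signal and to 51.5 among peaks with a symbol only. The share of family promoter peaks with an E2F word fell from 66.7% to 33.3% with the window at the peak centre in place of the apex, and was 55.6% with 100 bases or with 2 words only and 66.7% over the whole peak. No paired analysis was possible because both replicates share 1 set of values, and for the same reason no replicate could be left out. The unknown depth means that a gene without a peak, such as E2F4 or RBL2, was below detection in this list and is not shown to be unbound.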

Other observations

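Besides the start-site peak, 3 more peaks lay within the body of RB1, in or near other genes that overlap it. One without a symbol, from 49066355 to 49066984 on chromosome 13, had a height of 21 over 630 bp and its apex 30 bp upstream of an RCBTB2 start. The peak labelled RCBTB2, from 49106311 to 49107681, had a height of 26 over 1371 bp. The last, from 49159659 to 49160056, lay in an intron of LINC00462 with a height of 19 over 398 bp. It held 2 retinoid half-sites within 200 bases of the apex, and a direct repeat of the half-site with a spacing of 5 bases was found there, as in 0.34% of all peaks without a symbol. All 3 were higher than the peak at the RB1 start (17), which was itself higher than only 7.36% of all peaks.

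Peaks of other genes also lay within 50 kb of family promoter peaks. Near E2F1 they carried the symbols PXMP4 (height 26), ACTL10 (24), ZNF341 (17) and NECAB3 (16), all lower than the main E2F1 peak (36). Near E2F2 they were those of ID3 (35) and ASAP3 (20). The ID3 peak was centred 26148 bp from the nearest E2F2 promoter peak and was higher than both E2F2 promoter peaks (28 each), but lower than 3 of the E2F2 peaks without a symbol.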
